A study of Mus musculus with 12 samples.

Results

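Cholesterol synthesis and the machinery of its main regulator, the transcription factor SREBP2, were followed through 28 genes in RNA sequencing of the mouse aorta. The genes were chosen by name as enzymes of the route, as parts of the sterol sensor, or as genes known to be controlled by SREBP2. Earlier results of these data were known when they were chosen, so their shares beside those of all genes are descriptive. All 28 were among the 22183 genes of the deposited table, and all 28 passed the count filter in every comparison. The mice were male, lacked apolipoprotein E (ApoE-/-) in all groups and were 8 weeks old at the start. Mice of the HFD+TUDCA group ate a high-fat diet (16% fat, cholesterol added to 0.25%) and, from week 8 of it on, were given 1000 mg/kg of tauroursodeoxycholic acid (TUDCA), a taurine-conjugated bile acid, by gavage each day for 4 weeks. The HFD group ate the same diet and was given saline for those 4 weeks. The NFD group ate a diet with 5% fat and no cholesterol and was given saline too. Each group had 4 libraries, made from tissue taken between the ascending aorta and its bifurcation.

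Cells make cholesterol from acetyl-CoA by way of mevalonate, squalene and lanosterol. The route is controlled by SREBP2, a membrane-bound factor encoded by Srebf2. When membranes of the endoplasmic reticulum are poor in sterol, the escort protein Scap carries SREBP2 to the Golgi, where the proteases encoded by Mbtps1 and Mbtps2 release its active part. When sterol is plentiful, the Insig proteins hold Scap back, and transcription of the route falls. Insig1 is itself a target of SREBP2, and the lipid-laden cells of an atherosclerotic aorta take up much of their sterol from lipoproteins.

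The regulatory sequence just upstream of the start sites is shown for 7 genes on which the results turn: the 3 genes called lower on the high-fat diet, the sensor genes Insig1 and Srebf2, and Hmgcs1 and Mvk of the mevalonate steps. SREBP2 binds sterol regulatory elements, usually together with the factors NFY, which binds CCAAT boxes, and SP1, which binds GC boxes. The stretches come from RefSeq promoter windows on GRCm38.p6, which run from 250 bases before to 50 bases after a start, and were trimmed to bases upstream of the start that lie outside annotated exons. Capitals mark matches, on either strand, to the relaxed sterol element TCACNNCA or to the CCAAT box.
Hmgcs1 (chr13:119690101-119690350, plus strand): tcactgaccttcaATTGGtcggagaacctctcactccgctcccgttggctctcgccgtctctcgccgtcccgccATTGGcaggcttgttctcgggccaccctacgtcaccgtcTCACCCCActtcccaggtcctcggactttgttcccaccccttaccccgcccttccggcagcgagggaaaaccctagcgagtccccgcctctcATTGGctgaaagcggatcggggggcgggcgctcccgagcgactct
Mvk (chr5:114444061-114444268, plus strand): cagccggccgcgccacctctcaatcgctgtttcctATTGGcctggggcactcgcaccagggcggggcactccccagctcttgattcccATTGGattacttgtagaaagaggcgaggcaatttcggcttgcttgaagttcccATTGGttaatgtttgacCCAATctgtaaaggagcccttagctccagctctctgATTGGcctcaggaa
Cyp51 (chr5:4104747-4104947, minus strand): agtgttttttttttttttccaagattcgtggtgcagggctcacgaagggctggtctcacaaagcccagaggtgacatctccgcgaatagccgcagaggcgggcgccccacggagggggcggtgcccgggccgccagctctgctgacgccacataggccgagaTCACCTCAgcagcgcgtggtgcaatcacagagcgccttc
Nsdhl (chrX:72918412-72918520, plus strand): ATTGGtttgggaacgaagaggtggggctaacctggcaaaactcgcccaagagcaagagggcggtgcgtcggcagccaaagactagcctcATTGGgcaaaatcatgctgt
Sc5d (chr9:42264301-42264550, minus strand): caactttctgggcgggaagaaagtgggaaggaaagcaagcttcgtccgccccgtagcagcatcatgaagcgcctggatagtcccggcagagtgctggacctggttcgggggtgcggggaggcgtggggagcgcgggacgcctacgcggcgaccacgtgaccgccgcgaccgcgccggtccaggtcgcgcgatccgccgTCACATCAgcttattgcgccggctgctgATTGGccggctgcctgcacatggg
Insig1 (chr5:28071162-28071362, plus strand): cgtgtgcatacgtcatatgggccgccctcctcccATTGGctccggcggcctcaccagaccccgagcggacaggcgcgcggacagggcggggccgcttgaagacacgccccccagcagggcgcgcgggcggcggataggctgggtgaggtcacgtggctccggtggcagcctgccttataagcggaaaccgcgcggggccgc
Srebf2 (chr15:82147019-82147180, plus strand): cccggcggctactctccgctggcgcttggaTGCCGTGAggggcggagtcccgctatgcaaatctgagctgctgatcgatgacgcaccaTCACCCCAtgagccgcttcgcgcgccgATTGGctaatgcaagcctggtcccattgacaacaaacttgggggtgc

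The windows of 24 of the 28 genes were in the RefSeq table, beside those of 27025 genes in all. Both strands were searched. The long form TCACCCCAC of the sterol element was in 1 window (4.17%, against 0.614% of all), that of Hmgcs1. The core TCACNCCA, which takes in every long form, was in 3 windows (12.5%, against 4.97% of all), those of Hmgcs1, Msmo1 and Srebf2. The relaxed form TCACNNCA, which also takes in every match to the core, was in 10 windows (41.7%, against 15.7% of all). CCAAT was in 20 windows (83.3%, against 41.1%), GGGCGG in 21 (87.5%, against 38.2%) and the E box CACGTG in 5 (20.8%, against 8.09%). The stretch of Mvk holds 5 CCAAT boxes in 208 bases, and the exons of Mmab, a gene of cobalamin metabolism, begin on its far side. In Nsdhl the window holds a match to the relaxed form too, but outside the stretch shown, and exons of Cetn2 border that stretch. These are matches of letters and not measured binding sites. The 27025 genes were not limited to those found in the aorta, and control by SREBP2 was not tested with these shares.

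Total counts were 15199317 to 22061692 per library, and the member with the fewest counts in any library, Tm7sf2, had 58. The libraries were those of an aorta in their smooth muscle markers, with Acta2 at 696 to 1956 counts-per-million (CPM) and Myh11 at 279.5 to 805 CPM. They also held RNA of neighbouring tissue. Over the 12 libraries, 12 white adipocyte markers summed to 9879 to 21736 CPM and 7 heart muscle markers to 44.6 to 9483 CPM. The 8 smooth muscle markers summed to 1865 to 5482 CPM. Markers of the adrenal cortex, an organ that makes steroids from cholesterol, summed over 10 genes to 116, 113, 81.6 and 101 CPM in HFD+TUDCA replicates 1 to 4, 68.3, 90.8, 1383 and 4595 CPM in HFD replicates 1 to 4 and 2008, 150.5, 297 and 7324 CPM in NFD replicates 1 to 4. Cyp11b1, the defining adrenal enzyme, was at 0.159, 0.190, 0.181 and 0 CPM in the HFD+TUDCA libraries, 0.184, 1.06, 146 and 545 CPM in the HFD libraries and 229, 0.102, 16.9 and 849 CPM in the NFD libraries. Cyp11b1 was thus over 10 CPM in 2 HFD and 3 NFD libraries and near the limit of 3 counts (0.151 to 0.201 CPM, for counting error only) in all 4 HFD+TUDCA libraries. In bulk tissue, fewer cells of a type and less RNA per cell cannot be told apart.

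Per gene length, in fragments-per-kilobase-per-million (FPKM), the 28 genes spanned a wide range. Acat2, the thiolase that joins acetyl-CoA units, and Fdft1, which makes squalene, had the highest medians over the 12 libraries, at 67.3 and 60.8 FPKM. Fdps, the protease gene Mbtps1, Insig1 and Pmvk followed at 42.4, 37.5, 35.5 and 34.3 FPKM. At the low end stood Lss, which closes the rings of lanosterol, the sterol carrier Stard4, Mbtps2 and Hsd17b7, at 3.43, 2.67, 2.29 and 2.20 FPKM. Neighbours in this order overlapped in their ranges over the libraries, as with Acat2 (47.0 to 77.1 FPKM) and Fdft1 (36.9 to 80.6 FPKM). Insig1 had the widest span, with 11.7 FPKM in its lowest library and 105 FPKM in its highest. Counts of Acat2 and Fdft1 were not whole numbers in all 12 libraries, those of Tm7sf2 in 8, Mbtps2 in 7 and Fdps in 1, so reads of these 5 genes may have been divided with other genes.

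**Figure D1:**
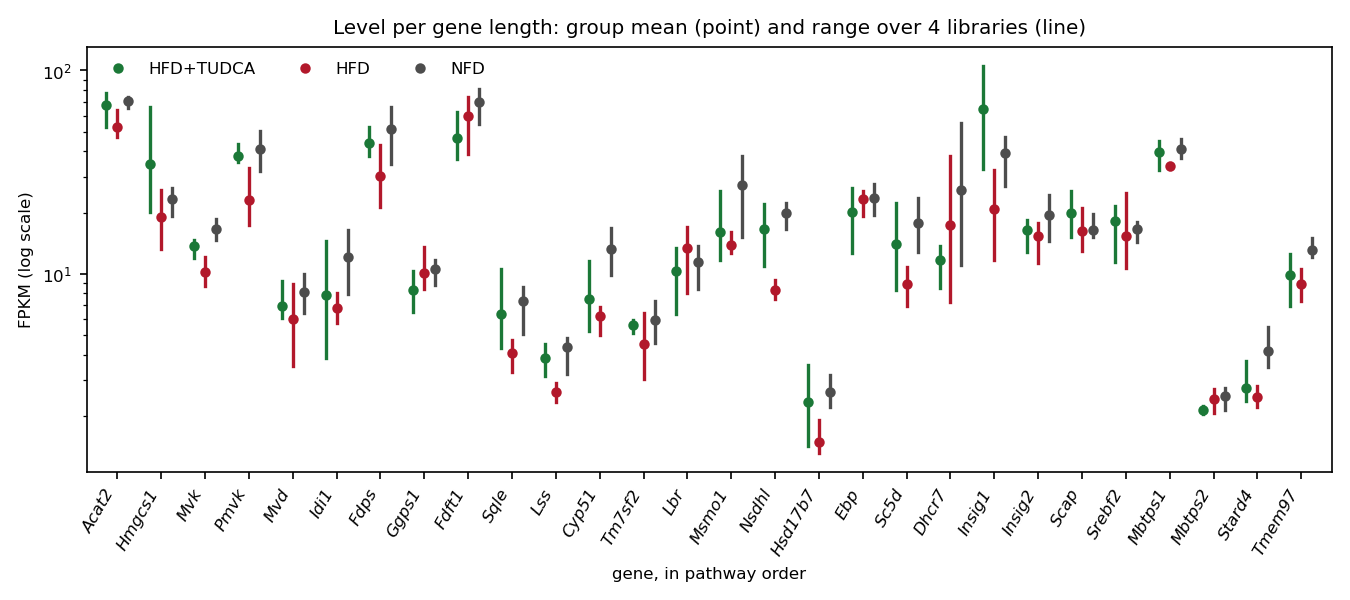
Level of each of the 28 genes per gene length (FPKM, log scale), in pathway order, in HFD+TUDCA, HFD and NFD. Points are means and lines the range over 4 libraries; Acat2 and Fdft1 stand highest among the enzymes, and Insig1 has the widest spread.

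What the high-fat diet did to the route was read from HFD against NFD. Most genes of the route lay lower in HFD, and the steps from lanosterol to cholesterol held the 3 that fell. Nsdhl, Cyp51 and Sc5d fell in HFD (edgeR quasi-likelihood test, Benjamini-Hochberg adjusted p under 0.05), which is 10.7% of the 28 genes, where 1.64% of all 14918 genes tested were called lower and 4.83% were called in either direction. None of the 28 was called higher, against 3.18% of all genes, and 0 were higher at an unadjusted p under 0.05, against 12% of all genes. DESeq2 and limma-trend also called 0 higher. At an unadjusted p under 0.05, 14 of the 28 (50.0%) were lower, against 8.99% of all genes. The log2 fold change was negative in 25 genes (89.3%, against 46.1%), the exceptions being Lbr, Ebp and Scap. Its median over the 28 genes was -0.45, against 0.037 over all genes tested, and it stayed between -0.46 and -0.53 with the other scalings of the counts.

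Nsdhl encodes a sterol dehydrogenase that works in the removal of methyl groups from lanosterol. It had 24.3, 42.2, 30.2 and 53.1 CPM in HFD+TUDCA replicates 1 to 4, 16.4, 19.5, 19.9 and 17.2 CPM in HFD replicates 1 to 4 and 44.3, 34.5, 48.2 and 37.9 CPM in NFD replicates 1 to 4. Every HFD library lay below every HFD+TUDCA and every NFD library. Its level was 2.24-fold lower in HFD than in NFD (log2 fold change -1.16 ± 0.14, edgeR adjusted p = 0.00342; 1.96e-10 to 0.981 over the alternatives). The call held in all 8 fits that left out 1 library.

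Cyp51 encodes the lanosterol demethylase, which takes the first step beyond lanosterol. It stood at 21.2, 27.1, 25.1 and 50.8 CPM in HFD+TUDCA replicates 1 to 4, 18.3, 23.9, 29.2 and 28.2 CPM in HFD replicates 1 to 4 and 61.3, 37.0, 50.8 and 50.3 CPM in NFD replicates 1 to 4. No HFD library reached the NFD range, and among the HFD+TUDCA libraries replicate 4 alone reached the NFD range. The log2 fold change of HFD against NFD was -0.99 ± 0.19 (edgeR adjusted p = 0.0192; 1.86e-04 to 0.988 over the alternatives), and 5 of the 8 fits without 1 library kept the call.

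Sc5d, a desaturase near the end of the route, had 23.2, 40.6, 23.6 and 71.7 CPM in HFD+TUDCA replicates 1 to 4, 24.6, 23.5, 25.7 and 20.5 CPM in HFD replicates 1 to 4 and 59.9, 40.1, 51.3 and 33.6 CPM in NFD replicates 1 to 4. Again HFD and NFD did not overlap, while HFD+TUDCA replicates 1 and 3 lay at the HFD level and replicate 4 above all NFD libraries. Sc5d was 1.95-fold lower in HFD than in NFD (log2 fold change -0.96 ± 0.19, edgeR adjusted p = 0.0230; 1.92e-04 to 0.988 over the alternatives), and 6 of the 8 fits without 1 library kept the call. Without NFD replicate 1, and without NFD replicate 3, Nsdhl was the 1 member called, among 188 and 178 genes in all. Without HFD replicate 4 there were 6, among 793 genes in all. In 1 fit of all 12 libraries Nsdhl and Mvk were the members called, among 520 genes in all. Cyp51 (-0.999, adjusted p = 0.0666) and Sc5d (-0.97, adjusted p = 0.135) kept their size in it and lost their calls.

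The other genes of this stretch did not pass the edgeR test, though DESeq2 called Msmo1 and Hsd17b7 lower (adjusted p = 0.0261 and 0.0102), as did edgeR with upper-quartile scaling for Hsd17b7 (0.0459). Msmo1, the monooxygenase that acts on sterol methyl groups, gave a log2 fold change of -0.87 ± 0.26 (adjusted p = 0.0895), and Hsd17b7, a ketoreductase of the same demethylation, one of -0.74 ± 0.20 (0.0648). Hsd17b7 had 6.75, 10.4, 9.58 and 18.1 CPM in HFD+TUDCA replicates 1 to 4, 5.88, 5.90, 6.95 and 8.80 CPM in HFD replicates 1 to 4 and 13.6, 9.73, 11.3 and 11.6 CPM in NFD replicates 1 to 4. Its HFD and NFD libraries did not overlap. The reductase genes Tm7sf2 and Lbr (-0.33 ± 0.31 and 0.29 ± 0.23) and the isomerase gene Ebp (0.069 ± 0.13) had smaller values. The median log2 fold change over the 9 genes from lanosterol to cholesterol was -0.74.

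Dhcr7 encodes the reductase of a last step of the route, and its highest libraries were those with the most adrenal RNA. It had 28.5, 30.3, 24.8 and 23.1 CPM in HFD+TUDCA replicates 1 to 4, 14.4, 20.2, 32.8 and 80.1 CPM in HFD replicates 1 to 4 and 41.5, 22.5, 25.8 and 108 CPM in NFD replicates 1 to 4. HFD replicate 4 and NFD replicate 4 stood far above the rest. Its log2 fold change was -0.42 ± 0.63 in HFD against NFD and -0.42 ± 0.46 in HFD+TUDCA against HFD (adjusted p = 0.764 and 0.739). Without the libraries over 10 CPM of Cyp11b1 the value in HFD+TUDCA against HFD was 0.64, and the part of adrenal RNA in it was not tested further.

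In the mevalonate and squalene steps no gene passed the edgeR test, and the median log2 fold changes were -0.47 over 8 mevalonate genes and -0.65 over 3 squalene and lanosterol genes. DESeq2 called 4 of these lower, Mvk, Lss, Sqle and Idi1 (adjusted p = 0.00610, 0.0130, 0.0350 and 0.0375), and both limma-trend fits called Mvk (0.0359 and 0.0351). Mvk, which phosphorylates mevalonate, had 22.4, 19.3, 19.0 and 22.2 CPM in HFD+TUDCA replicates 1 to 4, 16.5, 13.7, 14.4 and 17.2 CPM in HFD replicates 1 to 4 and 22.8, 21.1, 22.7 and 27.2 CPM in NFD replicates 1 to 4. The HFD libraries were below all others, and the log2 fold change against NFD was -0.59 ± 0.15 (edgeR adjusted p = 0.0553; 0.00610 to 0.988 over the alternatives). Lss had 17.5, 22.2, 13.7 and 21.8 CPM in HFD+TUDCA replicates 1 to 4, 12.6, 10.6, 13.98 and 12.1 CPM in HFD replicates 1 to 4 and 20.9, 14.4, 22.5 and 20.3 CPM in NFD replicates 1 to 4, with no overlap of HFD and NFD and a log2 fold change of -0.65 ± 0.18 (0.0672).

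The isomerase gene Idi1 (-0.79 ± 0.25, adjusted p = 0.107), the squalene epoxidase gene Sqle (-0.75 ± 0.23, 0.0936), Pmvk of the next mevalonate phosphorylation (-0.74 ± 0.26, 0.134) and Fdps, which makes farnesyl diphosphate (-0.68 ± 0.26, 0.172), had log2 fold changes below zero without passing the edgeR test. With the replicate number as a block, Idi1 was called too (adjusted p = 0.0313), and with the adrenal markers as a covariate Sqle and Fdps were (0.0322 and 0.0395). Nearer to zero were Mvd, the decarboxylase gene (-0.36), Acat2 (-0.33), Hmgcs1 of HMG-CoA synthase (-0.29), Fdft1 (-0.14) and Ggps1, which leads off to geranylgeranyl diphosphate (-0.053). Stard4 of sterol transport had 10.7, 12.8, 11.3 and 21.2 CPM in HFD+TUDCA replicates 1 to 4, 13.4, 11.6, 12.2 and 13.0 CPM in HFD replicates 1 to 4 and 23.8, 16.7, 20.3 and 17.1 CPM in NFD replicates 1 to 4, and a log2 fold change of -0.62 ± 0.16 (edgeR adjusted p = 0.0613; 0.00742 with DESeq2). In it, too, HFD and NFD did not overlap. For Tmem97, a sterol-binding membrane protein, the log2 fold change was -0.47 ± 0.17 (0.145). In all, HFD lay below NFD without overlap in 7 of the 28 genes (25.0%), against 6.89% of all genes tested, and above it in 0, against 8.10%.

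Among the sensor genes the median log2 fold change was -0.11 over 6 genes, and none passed the edgeR test, was called by DESeq2 or was called by limma-trend. Insig1, whose values per library are given with the TUDCA comparison, was 1.76-fold lower in HFD than in NFD (log2 fold change -0.81 ± 0.32, edgeR unadjusted p = 0.0299, adjusted p = 0.182), and it was called without HFD replicate 3 (-1.18, adjusted p = 0.0341). Its partner Insig2 had -0.29 ± 0.19 (adjusted p = 0.447). Srebf2 itself had 110.1, 102, 98.6 and 61.7 CPM in HFD+TUDCA replicates 1 to 4, 48.4, 70.8, 57.5 and 128 CPM in HFD replicates 1 to 4 and 83.1, 77.5, 72.2 and 77.2 CPM in NFD replicates 1 to 4. HFD replicate 4 was the highest of all 12 libraries and HFD replicate 1 the lowest, and the log2 fold change of HFD against NFD was -0.024 ± 0.27 (adjusted p = 0.974). Without HFD replicate 4 it was -0.42. Scap had 108, 81.5, 75.8 and 71.4 CPM in HFD+TUDCA replicates 1 to 4, 51.1, 70.3, 64.2 and 89.8 CPM in HFD replicates 1 to 4 and 56.1, 62.0, 56.2 and 76.0 CPM in NFD replicates 1 to 4, so the groups overlapped (0.14 ± 0.18, adjusted p = 0.715). The protease genes Mbtps1 and Mbtps2 had log2 fold changes of -0.18 ± 0.12 and -0.034 ± 0.21.

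**Figure D2:**
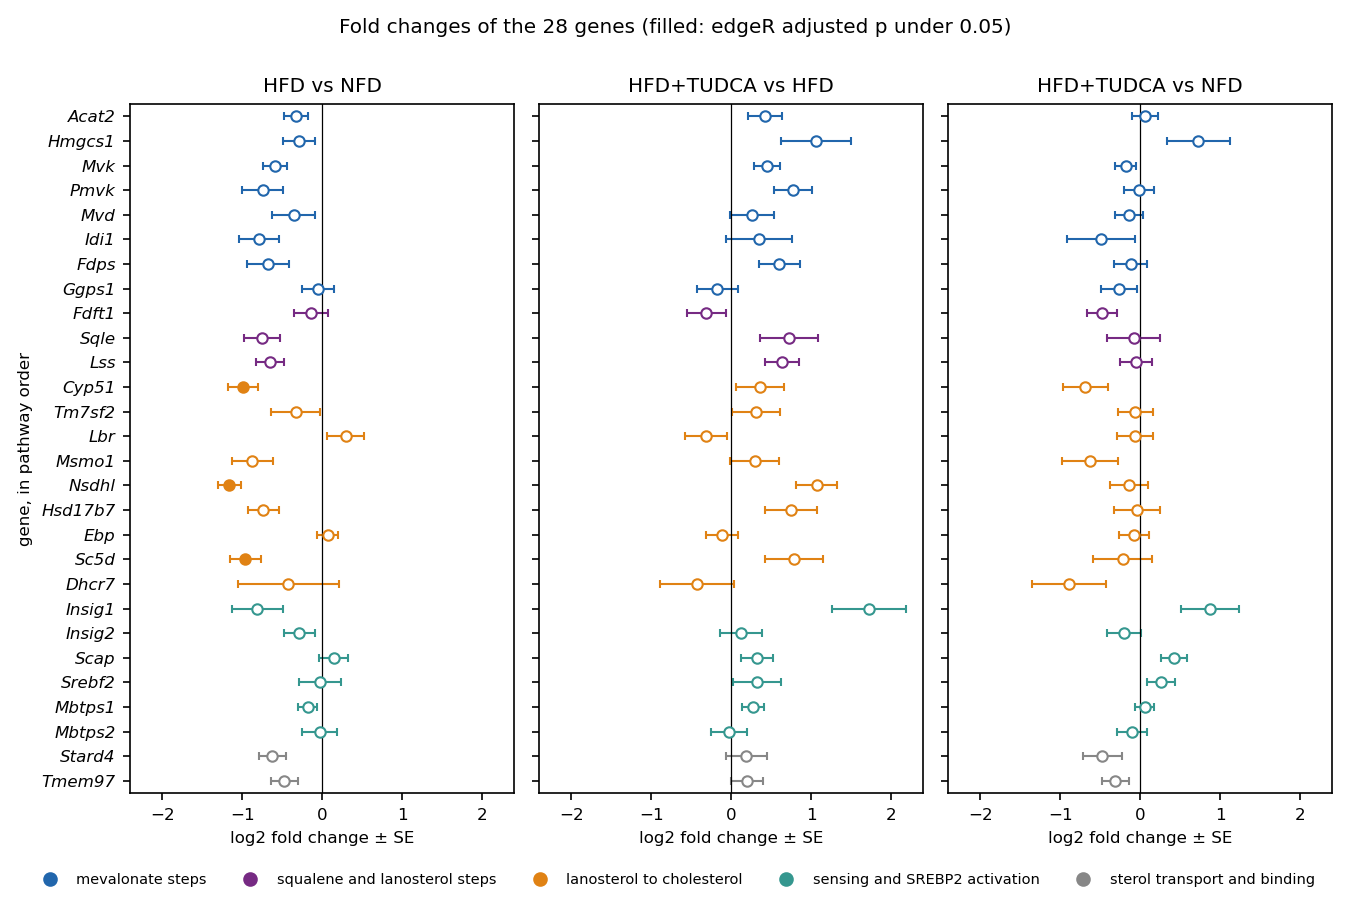
Log2 fold change ± SE (x axis) of each of the 28 genes (y axis, in pathway order, coloured by role) in the 3 comparisons, with filled points for an edgeR adjusted p under 0.05. Filled points stand at Cyp51, Nsdhl and Sc5d in HFD against NFD and nowhere else.

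Markers of other cells moved in this comparison as well. The 8 macrophage markers summed to 1338 to 2704 CPM in HFD and 447 to 556 CPM in NFD, and 6 of 8 rose, with none at 0. The 12 white adipocyte markers, none at 0, summed to 10769 to 14768 CPM in HFD and 13275 to 18399.5 CPM in NFD, and 1 of 12, Retn, fell. At an unadjusted p under 0.05, 6 of the 12 were lower and 0 higher, and DESeq2 called 4 lower and 0 higher. The 7 heart muscle markers, none at 0, summed to 338 to 2369.7 CPM in HFD and 3059.9 to 8355 CPM in NFD, and 2 of 7 fell. All 7 were lower at an unadjusted p under 0.05 and by DESeq2, and limma-trend called 6 lower. The 8 hepatocyte markers summed to 8.91 to 14.4 CPM in HFD and 37.9 to 70.1 CPM in NFD, and 3 of the 5 tested fell. DESeq2 called 5 of the 8 lower and 0 higher. Of 8 smooth muscle markers, with sums of 1865 to 3387 CPM in HFD and 2930 to 3866 CPM in NFD, 1 fell, Cnn1. The 7 airway and stratified epithelium markers summed to 14.3 to 1255 CPM in HFD and 858 to 1547 CPM in NFD. Of the 6 tested, 0 passed and 2 were lower at an unadjusted p under 0.05. The 5 red blood cell markers summed to 2938 to 15012 CPM in HFD and 1866 to 5069 CPM in NFD, and 0 passed. With the mean log2 CPM of the adipocyte markers as a covariate, 0 of the 28 genes and 1 gene in all were called. In that fit 14 of the 28 and 3.45% of all genes were lower at an unadjusted p under 0.05, and the median was -0.87. This score was 8.55 to 9.09 in HFD and 9.28 to 9.68 in NFD. The groups did not overlap in it, so this fit cannot well separate the diet from the adipocyte markers. Without the libraries over 10 CPM of Cyp11b1, which leaves 2 HFD and 1 NFD library and assumes that the lone NFD library varies like the HFD libraries, 0 of the 28 and 1 gene in all were called, with 26 of 28 log2 fold changes below zero and a median of -0.40. With the adrenal markers as a covariate 5 of the 28 and 734 of the 14918 genes tested were called. The part of the macrophage, heart, liver, smooth muscle, epithelial and red blood cell RNA in these values was not tested.

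The comparison of HFD+TUDCA with HFD asked what the bile acid did on the high-fat diet. No gene of the route passed the edgeR test, and no other gene tested did. Within that limit, most of the route stood higher in HFD+TUDCA, with the largest values in Insig1, Nsdhl and Hmgcs1. Of 14587 genes tested, 0% had an edgeR adjusted p under 0.05. At an unadjusted p under 0.05, 8 of the 28 genes (28.6%) were higher, against 5.42% of all genes, and 0 were lower, against 6.54%. These 8 were Insig1, Nsdhl, Hmgcs1, Pmvk, Hsd17b7, Lss, Fdps and Mvk. Their number was 4 without HFD replicate 2 (against 3.41% of all genes), 5 without HFD replicate 1 (2.68%) and 3 with the adipocyte markers as a covariate (2.17%). DESeq2 called 2 of the 28 higher, Nsdhl and Insig1, and limma-trend called 0. Of 18370 genes in all, DESeq2 called 340, of which 70 were higher and 270 lower. The log2 fold change was positive in 22 genes (78.6%, against 50.0%), and its median was 0.32, against 0.00011 over all genes.

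Insig1 had 167, 176, 82.5 and 316 CPM in HFD+TUDCA replicates 1 to 4, 29.4, 58.8, 95.3 and 46.3 CPM in HFD replicates 1 to 4 and 117, 98.9, 118 and 70.3 CPM in NFD replicates 1 to 4. HFD+TUDCA replicate 3 lay among the HFD libraries, while the other 3 HFD+TUDCA libraries lay above every HFD and NFD library. The difference between HFD+TUDCA and HFD was 3.31-fold (log2 fold change 1.72 ± 0.46, edgeR unadjusted p = 0.00459, adjusted p = 0.268; 0.0109 to 1.000 over the alternatives, the lowest with DESeq2), and 1.34 to 2.06 in the fits without 1 library.

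Insig2, the second anchor of Scap, had 23.3, 30.5, 27.9 and 46.3 CPM in HFD+TUDCA replicates 1 to 4, 35.1, 30.1, 33.7 and 20.9 CPM in HFD replicates 1 to 4 and 39.8, 36.4, 41.7 and 29.5 CPM in NFD replicates 1 to 4. The groups overlapped, with a log2 fold change of 0.12 ± 0.27 in HFD+TUDCA against HFD (adjusted p = 0.882). Per gene length, the ratio of Insig1 to Insig2 was 3.56, 4.84, 1.87 and 5.67 in HFD+TUDCA replicates 1 to 4, 0.677, 1.53, 1.82 and 1.44 in HFD replicates 1 to 4 and 2.20, 2.22, 1.81 and 1.87 in NFD replicates 1 to 4. Insig1 was thus the more abundant of the pair in every library except HFD replicate 1, and HFD+TUDCA replicates 1, 2 and 4 had ratios above all others.

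The per-library values of Nsdhl given above did not overlap between HFD+TUDCA and HFD. The log2 fold change was 1.07 ± 0.25 (edgeR unadjusted p = 0.00225, adjusted p = 0.234; 0.0109 to 0.983 over the alternatives, the lowest with DESeq2). Mvk was the other gene without overlap (0.45 ± 0.16, adjusted p = 0.353). These 2 are 7.14% of the 28, against 2.75% of all genes that were higher without overlap, and none of the 28 was lower without overlap, against 4.78%.

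Hmgcs1, the synthase gene at the head of the mevalonate steps, had 68.1, 105, 68.8 and 240.1 CPM in HFD+TUDCA replicates 1 to 4, 52.6, 55.1, 84.9 and 44.1 CPM in HFD replicates 1 to 4 and 80.4, 60.3, 78.9 and 71.0 CPM in NFD replicates 1 to 4. HFD+TUDCA replicate 4 stood far above the rest, and the log2 fold change of 1.06 ± 0.44 (adjusted p = 0.388) was 0.48 without it. The same library set the size of other values. Without it, the log2 fold change of Sqle was 0.28 in place of 0.72, that of Sc5d 0.33 in place of 0.79 and that of Cyp51 0.0096 in place of 0.36. HFD+TUDCA replicate 4 was the highest of its group in 15 of the 28 genes, and replicate 1 the lowest in 14. Replicate 4 also had the largest share of mitochondrial counts of all libraries, 19.2%. Its heart muscle markers summed to 44.6 CPM, against 1615 to 9483 CPM in the other HFD+TUDCA libraries, and its smooth muscle markers to 5482 CPM, against 2431 to 2769 CPM. The part of these in the values was not tested.

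Pmvk depended less on single libraries. It had 43.6, 54.9, 41.3 and 47.1 CPM in HFD+TUDCA replicates 1 to 4, 19.4, 22.2, 28.6 and 41.9 CPM in HFD replicates 1 to 4 and 55.5, 36.4, 58.7 and 37.9 CPM in NFD replicates 1 to 4. HFD+TUDCA replicate 3 lay just below HFD replicate 4, and the log2 fold change was 0.77 ± 0.24 (adjusted p = 0.296; 0.64 to 1.01 without 1 library). Lss (0.64 ± 0.21, 0.322), Hsd17b7 (0.74 ± 0.33, 0.415) and Fdps (0.60 ± 0.26, 0.404) were of like size. Srebf2 and Scap had log2 fold changes of 0.33 ± 0.30 and 0.32 ± 0.20 (adjusted p = 0.690 and 0.548). The 6 genes below zero were Fdft1 (-0.31), Lbr (-0.32), Ggps1 (-0.17), Ebp (-0.11), Mbtps2 (-0.030) and Dhcr7 as given above. The remaining genes, Acat2, Mvd, Idi1, Msmo1, Tm7sf2, Mbtps1, Stard4 and Tmem97, had log2 fold changes of 0.19 (Stard4) to 0.42 (Acat2).

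**Figure D3:**
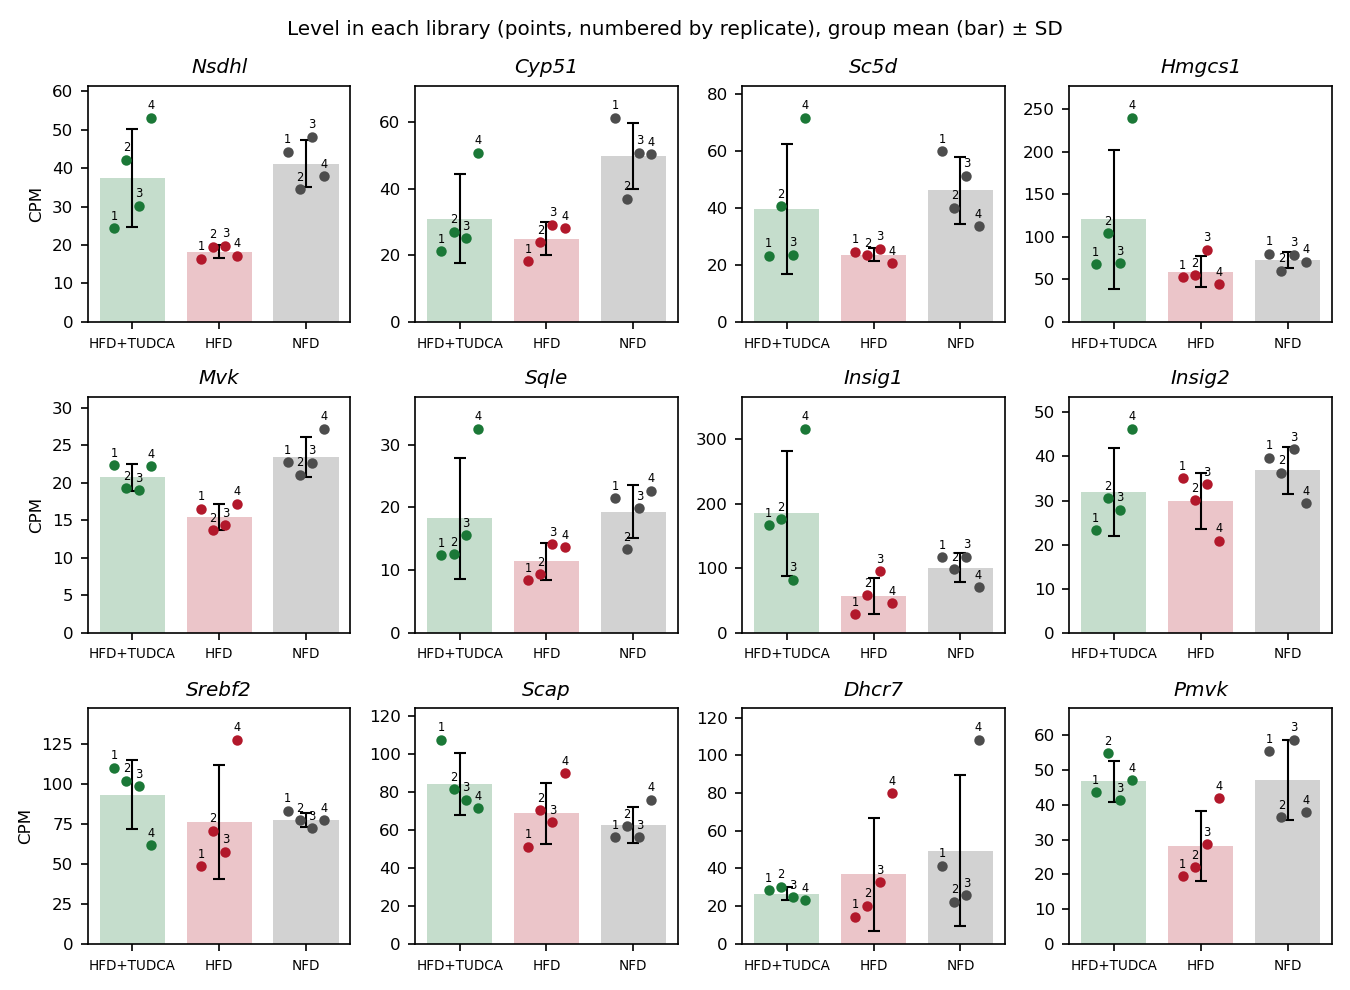
Level in CPM (y axis) of 12 genes in each library, with points numbered by replicate, bars for group means and error bars for SD (n = 4). Nsdhl in HFD lies below both other groups without overlap, and HFD+TUDCA replicate 4 is the highest library for Hmgcs1, Sqle, Sc5d and Insig1.

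The adrenal markers were spread differently in these groups, with sums of 81.6 to 116 CPM in the HFD+TUDCA libraries and 68.3 to 4595 CPM in the HFD libraries, where replicates 3 and 4 were high. Without those 2 HFD libraries the median log2 fold change of the 28 genes was 0.54, that of Insig1 2.11 and that of Nsdhl 1.08, with 0 genes called. With the adrenal markers as a covariate the median was 0.57. The 8 macrophage markers summed to 696 to 1082 CPM in HFD+TUDCA and 1338 to 2704 CPM in HFD, and 0 of 8 passed the edgeR test, while 7 were lower at an unadjusted p under 0.05 and DESeq2 called 6 lower. The white adipocyte markers summed to 9879 to 21736 CPM in HFD+TUDCA and 10769 to 14768 CPM in HFD, and 0 of 12 passed, with 3 higher at an unadjusted p under 0.05 and 1 called higher by DESeq2. With the adipocyte markers as a covariate the median of the 28 genes was 0.38 and the log2 fold change of Insig1 1.16. The part of the macrophage RNA was not tested.

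Summed over the 20 enzymes, the route stood at 833, 869.9, 720.4 and 1156 CPM in HFD+TUDCA replicates 1 to 4, 673, 682, 857 and 770.3 CPM in HFD replicates 1 to 4 and 1062, 848, 1049.9 and 1020.0 CPM in NFD replicates 1 to 4. The means were 895 ± 186 CPM in HFD+TUDCA, 745 ± 86.3 CPM in HFD and 995 ± 99.4 CPM in NFD (SD, n = 4 each). HFD replicate 3 and NFD replicate 2 were the 2 libraries in which HFD and NFD met, at 857 CPM in HFD and 848 CPM in NFD. Adrenal markers summed to 1383 CPM in that HFD library and to 150.5 CPM, the lowest of its group, in that NFD library. NFD replicate 3, with 297 CPM of them, had 1049.9 CPM of the enzymes. The part of adrenal RNA in these sums was not tested. NFD replicate 2 was the lowest of its group in 15 of the 20 enzymes, and HFD replicate 3 the highest of its group in 10.

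**Figure D4:**
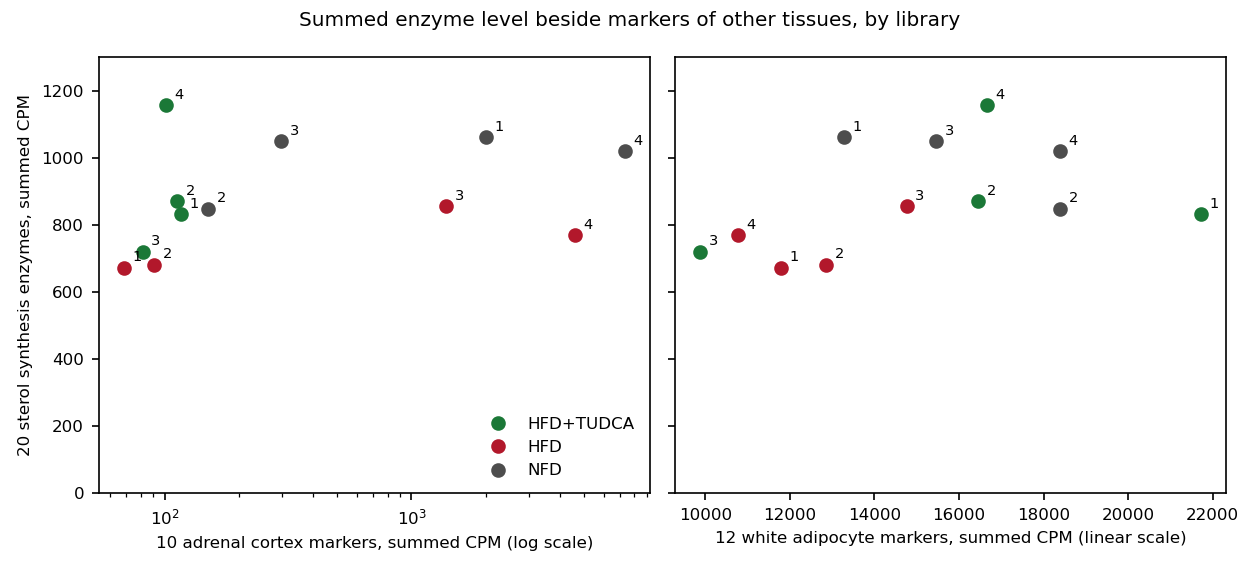
Summed level of the 20 enzymes (y axis, CPM) in each library, numbered by replicate, against the summed level of 10 adrenal cortex markers (left, CPM, log scale) and of 12 white adipocyte markers (right, CPM). The HFD+TUDCA libraries all lie at the low end of the adrenal axis, where HFD replicates 1 and 2 and NFD replicate 2 also lie.

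The comparison of HFD+TUDCA with NFD set the treated mice against those on the normal diet. Most of the route stood slightly below the NFD level in the main fit. At an unadjusted p under 0.05, Insig1 and Scap were above the NFD level and Cyp51 and Fdft1 below it. None of the 28 genes passed the edgeR test, against 0.194% of the 14942 genes tested (0.0937% lower and 0.1% higher), and DESeq2 and limma-trend also called 0. The 2 genes lower at an unadjusted p under 0.05 are 7.14% of the 28, against 4.66% of all genes, and the 2 higher ones are also 7.14%, against 6.79%. These shares are near those of all genes. Without HFD+TUDCA replicate 4, 9 of the 28 were lower at that threshold, against 13.6% of all genes, and the median log2 fold change of the 28 was -0.22. None of the 28 was without overlap, lower or higher, against 3.43% and 3.88% of all genes. The median log2 fold change was -0.11, against 0.0052 over all genes, and 22 of 28 were negative (78.6%, against 49.3%). Without the libraries over 10 CPM of Cyp11b1 the median was 0.16 with 10 negative, and with the adrenal markers as a covariate it was 0.081 with 13 negative.

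The log2 fold change against NFD was 0.87 ± 0.36 for Insig1 (adjusted p = 0.396) and 0.42 ± 0.16 for Scap (0.349). It was -0.68 ± 0.28 for Cyp51 (0.391; 0.0136 to 1.000 over the alternatives) and -0.48 ± 0.19 for Fdft1 (0.356). Without HFD+TUDCA replicate 4, Cyp51 was called lower (-1.05, adjusted p = 0.0136), as was Stard4, so that 2 of the 28 passed, among 682 genes in all. For the genes that fell on the high-fat diet, the values against NFD were -0.14 ± 0.24 for Nsdhl and -0.22 ± 0.37 for Sc5d, and for Hmgcs1 the value was 0.73 ± 0.39. The HFD and NFD libraries each serve in 2 comparisons, so the log2 fold changes of 1 gene in the 3 comparisons are not independent.

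**Figure D5:**
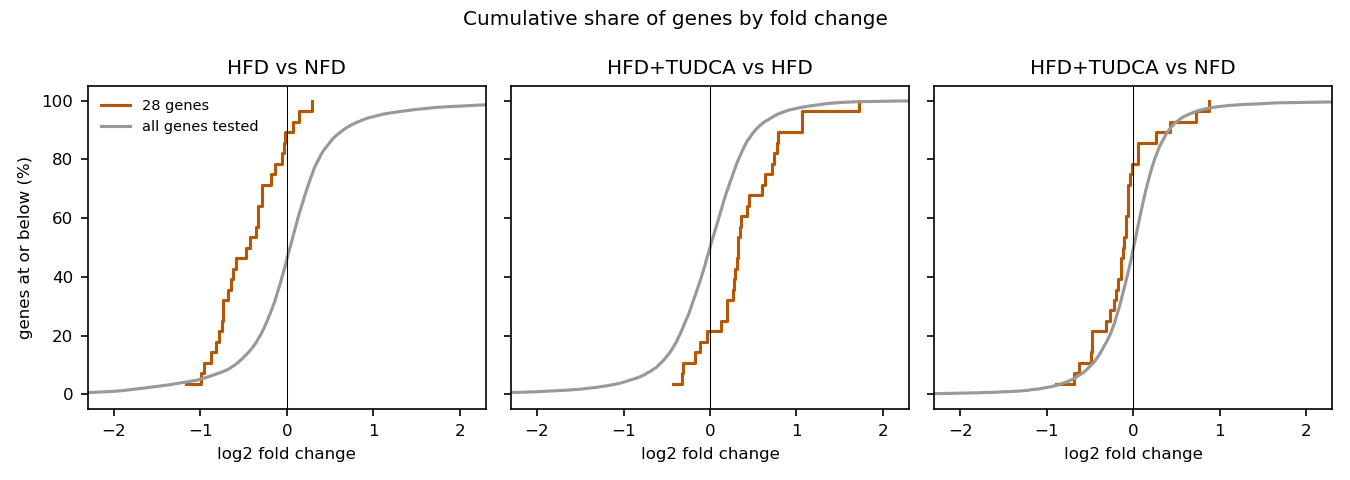
Cumulative share (y axis, %) of the 28 genes and of all genes tested with a log2 fold change at or below the value on the x axis, in the 3 comparisons. The 28 genes lie to the left of all genes in HFD against NFD (median -0.45 against 0.037), to the right in HFD+TUDCA against HFD (0.32 against 0.00011) and close to them in HFD+TUDCA against NFD (-0.11 against 0.0052).

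Genes around the route were read from 4 further lists. In HFD against NFD, edgeR called 1.64% of all genes tested lower and 3.18% higher. DESeq2 called 718 lower and 985 higher of 18445, and limma-trend on log2(FPKM + 1) called 408 and 320 of 14918. At an unadjusted p under 0.05, 8.99% of all genes were lower and 12% higher in that comparison. These shares were 6.54% and 5.42% in HFD+TUDCA against HFD, and 4.66% and 6.79% in HFD+TUDCA against NFD. Of 19 helpers and side branches, the edgeR test called 1 lower and 0 higher in HFD against NFD, DESeq2 3 lower and 1 higher, and limma-trend 4 lower and 0 higher. The gene that edgeR called was Acss2, which makes acetyl-CoA from acetate and is a known SREBP target, at 64.7 ± 22.3 CPM in HFD and 236 ± 109 CPM in NFD (SD, n = 4 each; log2 fold change -1.86 ± 0.36, adjusted p = 0.0210), and 5 of the 8 fits without 1 library kept the call. Against HFD, HFD+TUDCA had 0 of 19 that passed the edgeR test, 4 were higher and 0 lower at an unadjusted p under 0.05, limma-trend called 0 and DESeq2 called 2 higher. Against NFD 0 passed, with 2 lower and 2 higher at an unadjusted p under 0.05, and DESeq2 called 1 higher and limma-trend 0. The lowest p against HFD was that of Mmab, which shares its upstream stretch with Mvk. Mmab had 49.9, 43.6, 34.2 and 46.2 CPM in HFD+TUDCA replicates 1 to 4, 16.8, 24.3, 25.6 and 25.0 CPM in HFD replicates 1 to 4 and 29.1, 30.6, 30.1 and 33.1 CPM in NFD replicates 1 to 4. The HFD+TUDCA libraries lay above all others and the HFD libraries below all others (log2 fold change of HFD+TUDCA against HFD 0.95 ± 0.19, adjusted p = 0.169; 0.00152 to 0.925 over the alternatives).

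Of 14 genes that sense sterol or mark proteins of the route for degradation, 0 passed the edgeR test in any comparison. In HFD against NFD 2 were lower and 2 higher at an unadjusted p under 0.05, limma-trend called 0 and DESeq2 called 1 lower. For HFD+TUDCA against HFD 1 was lower and 2 were higher, and against NFD 0 and 2, with 0 called by DESeq2 and limma-trend. Spring1, which encodes a partner of the first SREBP protease, had the lowest p in HFD against NFD (-0.56 ± 0.17, adjusted p = 0.0916).

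The list of genes that answer cholesterol excess had 13 of 14 log2 fold changes above zero in HFD against NFD. The other 1 was below zero, as were 46.1% of all genes tested. With edgeR 3 of 14 rose and 0 fell, while DESeq2 called 4 higher and limma-trend 3. The 3 called by edgeR were Abcg1 and Abca1, which export cholesterol (1.65 ± 0.14, adjusted p = 0.00122, and 1.13 ± 0.23, adjusted p = 0.0248), and Lipa, the lysosomal lipase (1.02 ± 0.16, adjusted p = 0.00922). Abcg1 kept its call in 8 of 8 fits without 1 library, Lipa in 7 and Abca1 in 4. None of the 14 passed the edgeR test in HFD+TUDCA against HFD, where 7 were lower and 0 higher at an unadjusted p under 0.05 and DESeq2 called 3 lower and limma-trend 0. Abcg1 had 77.9 ± 20.2 CPM in HFD+TUDCA and 208 ± 26.7 CPM in HFD (-1.40 ± 0.22, adjusted p = 0.148). Between HFD+TUDCA and NFD 0 passed, with 2 lower and 1 higher at an unadjusted p under 0.05, 1 called higher by DESeq2 and 0 by limma-trend. The part of the macrophage RNA, given above, in these values was not tested.

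Fatty acid synthesis, which SREBP1 controls, had a median log2 fold change of -0.84 in HFD against NFD. DESeq2 called 7 of its 14 genes lower and limma-trend 6, and both called 0 higher. With edgeR 4 of 14 fell and 0 rose, namely Slc25a1, the citrate carrier (-1.91 ± 0.34, adjusted p = 0.0164), Me1, malic enzyme (-2.49 ± 0.47, adjusted p = 0.0196), Acaca, acetyl-CoA carboxylase (-1.96 ± 0.38, adjusted p = 0.0203), and Acly, ATP citrate lyase (-2.36 ± 0.50, adjusted p = 0.0310). None of the 14 in HFD+TUDCA against HFD passed the edgeR test or was called by DESeq2 or limma-trend, and 4 were higher and 0 lower at an unadjusted p under 0.05. The lowest p was that of Fasn, fatty acid synthase (1.79 ± 0.61, adjusted p = 0.332). Set against NFD, HFD+TUDCA had 0 that passed and 9 that were lower and 0 higher at an unadjusted p under 0.05, while DESeq2 called 4 lower and limma-trend 0. White adipocytes express these genes strongly, and the part of the adipocyte RNA given above in these values was not tested.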

How the data were processed

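RNA of the aorta was measured in 12 libraries (poly(A) selection and NEBNext Ultra libraries, per the labels' protocols). The authors deposited expected counts per gene and FPKM values, per the file headers; 8.53% to 9.43% of each library's values had decimals, and the expected counts were rounded. The build was GRCm38, per the submitters' processing notes; the aligner and the counter are not stated in the labels used here. Depth is total counts per library. Nothing in the labels says that each library came from 1 animal, so p-values measure only the spread between libraries.

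The main test was edgeR 4.0.16 (R 4.3.3; TMM, robust quasi-likelihood fit of the 2 groups, minimum count 10, minimum total 15), with a Benjamini-Hochberg adjusted p over all genes tested and a threshold of 0.05. CPM used the TMM factors of all 12 libraries. Alternatives were RLE and upper-quartile scaling, other filters (none, or 1 CPM in 4 libraries), 1 fit of all libraries, a replicate block, adrenal or adipocyte scores as covariates, no libraries over 10 CPM of Cyp11b1, DESeq2 1.42.0, limma-trend (limma 3.58.1) on log2(FPKM + 1) or log2(FPKM + 0.1), and each library left out. The count test was run on simulated data, and its power to find small changes is not given here. Same-numbered HFD and NFD libraries deviated together weakly (r = 0.131, 0.283, 0.244 and 0.177), from the data and not from the labels. HFD replicates 2, 3 and 4 correlated best with the NFD library of their own number, but HFD replicate 1 with NFD replicate 3.

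The members and lists were chosen with earlier results of these data known. Values per library were to be given for called members, the sensor genes Srebf2, Insig1, Insig2 and Scap and the 4 others with the lowest unadjusted p (Mvk, Stard4, Hsd17b7 and Lss); Hmgcs1, Pmvk and Dhcr7, and Mmab, were added after their values were seen. Of other lists up to 4 genes were named. Some genes are not reported here. Promoter windows are those of RefSeq (GRCm38.p6), exons those of GENCODE on GRCm38. Tables and figures used pandas 2.3.3, numpy 2.4.6 and matplotlib 3.10.9 in Python 3.11.15.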

Additional observations from a re-analysis of the deposited data

Results flagged for a closer look

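In 84 sets of 4 libraries (28 genes in 3 groups), 3 had 1 library far from the others of its group by Dixon's criterion (critical value 0.829), and chance flags about 1 in 20. Acat2 stood at 109.7 CPM in HFD+TUDCA replicate 3, against 165.9 to 178 CPM in the other HFD+TUDCA libraries. Mvd stood at 15.1 CPM in HFD+TUDCA replicate 3, against 11.3 to 11.9 CPM in the others. Lbr stood at 28.3 CPM in NFD replicate 4, against 39.8 to 42.6 CPM in the other NFD libraries.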

How the results depend on the processing

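The median log2 fold change of the 28 genes kept its sign in HFD against NFD and in HFD+TUDCA against HFD under every alternative run. The number of calls depended on the method and on single libraries, and the cause was not tested. In HFD against NFD, 3 of the 28 and 720 genes were called with edgeR. Upper-quartile scaling called 6 of the 28 and 739 genes, and the adrenal covariate 5 and 734. The fit of 12 libraries called 2 of the 28 (Nsdhl and Mvk) and 520 genes, and DESeq2 10 of the 28 and 1703 genes. The adipocyte covariate, in which HFD and NFD did not overlap, called 0 of the 28 and 1 gene (median -0.87). The fit without libraries over 10 CPM of Cyp11b1, which leaves 1 NFD library, had a median of -0.40. Without 1 library, 1 to 6 of the 28 (1 without NFD replicate 1 or 3, 6 without HFD replicate 4) and 178 to 1181 genes were called, with a median of -0.68 (without HFD replicate 4) to -0.39. The calls split into 245 lower and 475 higher with TMM and 332 and 407 with upper-quartile scaling. DESeq2 gave 718 lower and 985 higher, and limma-trend on log2(FPKM + 1) gave 408 and 320. Where edgeR called 0, in HFD+TUDCA against HFD, 1 fit of 12 libraries called 115 genes, the adrenal covariate 1 and DESeq2 340, with 2 of the 28 among the last and 0 in every other setting. Where edgeR called 29, in HFD+TUDCA against NFD, the adrenal covariate called 3, the adipocyte covariate 133, DESeq2 543, limma-trend 50 and 44, and the fit without libraries over 10 CPM of Cyp11b1 0. Without 1 library, 4 to 682 genes and 0 to 2 of the 28 were called, the highest without HFD+TUDCA replicate 4.

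With the replicate block, HFD against NFD gave 776 genes and 4 of the 28, Idi1 being added and no other call of the 28 changed. The numbers did not pair the other groups (r = -0.44 to -0.27 for HFD+TUDCA with HFD and -0.40 to -0.043 for HFD+TUDCA with NFD), and no library there correlated best with its own number. The block gave 0 and 8 genes in those comparisons. With it, 4 in place of 8 of the 28 were higher than HFD at an unadjusted p under 0.05. The share of all genes was 1.99% in place of 5.42%.

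Some genes changed sign, and among the values given here Dhcr7 did so by the widest margin. In HFD against NFD, Ebp was at -0.0074 with upper-quartile scaling, -0.011 with both limma-trend fits, -0.058 with the adipocyte covariate and -0.043 without libraries over 10 CPM of Cyp11b1. Scap was at -0.10 with the adipocyte covariate, -0.048 without those libraries and -0.032 and -0.035 with limma-trend. The adipocyte covariate put Hmgcs1 at 0.0016, Fdft1 at 0.38, Lbr at -0.041, Insig2 at 0.049 and Mbtps2 at 0.23, and the fit without those libraries put Ggps1 at 0.025. In HFD+TUDCA against HFD, Dhcr7 was at 0.89 with the adrenal covariate, 0.15 with the adipocyte covariate and 0.64 without those libraries, and Insig2 at -0.15 with the adrenal covariate and -0.0048 without those libraries. In HFD+TUDCA against NFD, values by gene in such fits were read only for Cyp51, Fdft1, Hmgcs1, Insig1, Nsdhl, Sc5d and Scap. Among them, Nsdhl was at 0.13 and Sc5d at 0.0034 without those libraries. Of all members, 22 were below zero in the main fit, 10 without those libraries and 13 with the adrenal covariate. More members thus changed sign in this comparison than are named here. Leaving out 1 library gave ranges across zero. In HFD against NFD these were -1.17 to 0.30 for Dhcr7, -0.042 to 0.12 for Ebp, -0.22 to 0.033 for Ggps1, -0.15 to 0.048 for Mbtps2, -0.046 to 0.25 for Scap and -0.42 to 0.13 for Srebf2. For HFD+TUDCA against HFD they were -0.69 to 0.25 for Dhcr7, -0.29 to 0.034 for Ebp, -0.19 to 0.55 for Idi1, -0.11 to 0.23 for Insig2, -0.14 to 0.080 for Mbtps2, -0.086 to 0.40 for Msmo1 and -0.083 to 0.29 for Stard4. For HFD+TUDCA against NFD the range was -0.37 to 0.026 for Nsdhl, and Acat2, Pmvk, Fdps, Sqle, Lss, Tm7sf2, Lbr, Hsd17b7, Ebp, Mbtps1 and Mbtps2 also crossed zero, between -0.54 (Sqle) and 0.20 (Acat2).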
